A study of Sus scrofa with 6 samples.

Results

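The set described here is 10 immediate early genes, chosen by symbol: FOS, FOSB, JUN, JUNB, JUND, EGR1, ATF3, IER2, DUSP1 and MYC. Of these, 8 had a row under their symbol among the 25322 genes of the table, each with a single row, and FOSB and JUND were not analysed here. All 8 passed the filter on low counts, among 13209 genes tested. Immediate early genes are transcribed within minutes of a stimulus by factors that are already in the cell, chiefly serum response factor with its ETS partners and CREB, which kinase cascades switch on. Their RNAs are short-lived, so a level reflects recent events more than a settled state. In skeletal muscle they are known to respond to contraction, stretch, injury and stress hormones.

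RNA was sequenced from the longissimus dorsi, the long muscle of the back, of Wei and Yorkshire pigs, with 3 libraries per breed. The Wei animals ate commercial feed, had free access to water and were slaughtered at 90 kg, and the Yorkshire animals were kept in a similar way, with no slaughter weight given. Neither sex, age, slaughter handling nor the time from death to sampling is given for any animal. The sample titles carry the codes LWH for Yorkshire and YH for Wei, which are not explained; were the breed labels exchanged, each direction below would turn. Nothing in the labels says that the libraries came from separate animals, so each p-value is set against the spread of these libraries, part of which may be technical. The Y chromosome counts below set Wei replicate 2 apart from the other libraries, as a male among them would be, and the tests did not take sex into account.

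Total gene counts ranged from 15285197 to 27096747 per library. The muscle label held: of 8 skeletal muscle fibre markers with a row, 8 had counts in every library, and together they made up between 111000 and 171000 CPM (counts scaled to a common library size, here by the total counts, as for all sums of markers). Wei replicate 2 held 6901 counts of Y chromosome genes, where no other library had more than 14. Markers of lymphocytes summed to 25.7 CPM in Yorkshire replicate 3 and to between 2.70 and 6.32 in the other libraries. The levels of single genes below are CPM after TMM scaling. In bulk muscle, a change in the number of cells of a type and a change in RNA per cell cannot be told apart.

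For 7 of the 8 genes the Wei and Yorkshire libraries overlapped, and DUSP1 was the exception. Yorkshire replicate 1 had the highest level of its breed for 8 of 8 genes, and Wei replicate 3 the lowest of its breed for 8 of 8. Both held at once for 12.5% of all tested genes. Of the 8 genes, DUSP1 passed the test between breeds, higher in Wei, and none was lower. The test was edgeR's quasi-likelihood test with Benjamini-Hochberg adjustment over all tested genes, at a threshold of 0.05. Of all tested genes 2.73% were called higher in Wei, 2.35% lower and 5.08% in either direction, so 1 call among 8 is no sign of a shift of the set. At an unadjusted p under 0.05, 23.3% of all tested genes passed, and again DUSP1 alone of the set. DESeq2 called 9.78% of all tested genes and limma voom 4.88%, and of the set each called DUSP1 alone.

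**Figure D1:**
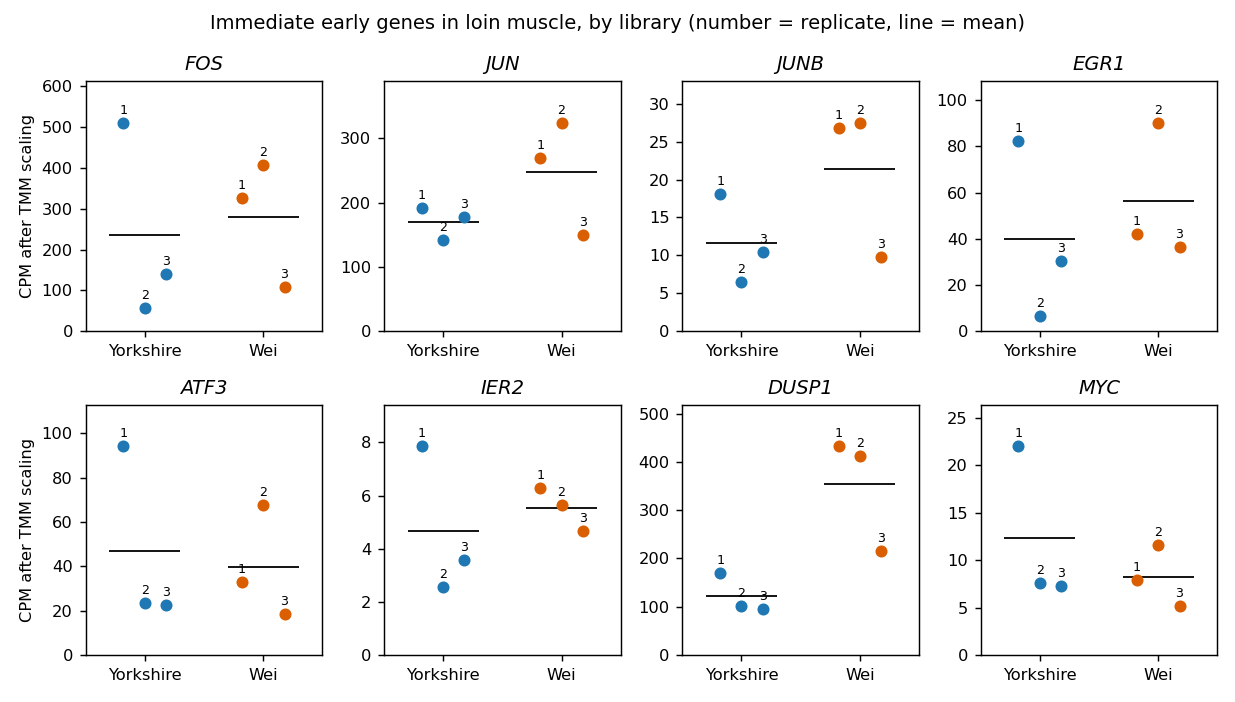
Level of each immediate early gene (CPM after TMM scaling, linear axis from 0, a separate scale per gene) in 3 Yorkshire and 3 Wei libraries; each point is a library with its replicate number, and the line is the breed mean. Yorkshire replicate 1 is the highest Yorkshire point and Wei replicate 3 the lowest Wei point in all 8 panels, and the breeds separate for DUSP1 alone.

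FOS and the JUN proteins pair to form AP-1, a dimeric transcription factor. FOS (ENSSSCG00000002383, chromosome 7, 104293657 to 104297121 in Sscrofa10.2) stood at 511, 56.0 and 140 CPM in Yorkshire replicates 1 to 3. In Wei replicates 1 to 3 it stood at 327, 407 and 109 CPM. The breeds overlapped fully, since the highest and the lowest of the 6 values were both Yorkshire libraries. The Yorkshire libraries spanned 9.13-fold and the Wei libraries 3.73-fold. The breed means were 236 ± 242 CPM (SD, n = 3) in Yorkshire and 281 ± 154 in Wei. The log2 fold change, Wei over Yorkshire, was 0.25 ± 0.74 (SE; edgeR's quasi-likelihood test, adjusted p = 0.869). Its 95% interval ran from -1.43 to 1.93, so a change of up to 3.82-fold upward was within the error.

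JUN (ENSSSCG00000030839, chromosome 6, 141230121 to 141233597), the main partner of FOS, was the steadiest of the set. It stood at 192, 141 and 178 CPM in Yorkshire and at 269, 324 and 149 in Wei. Wei replicates 1 and 2 lay above every Yorkshire library, and Wei replicate 3 lay among them. The log2 fold change was 0.54 ± 0.27 (edgeR, adjusted p = 0.263), with a 95% interval from -0.07 to 1.15. JUNB, a JUN relative that often restrains JUN activity (ENSSSCG00000013735, chromosome 2, 66505144 to 66507024), shared the order of JUN. It stood at 18.1, 6.47 and 10.5 CPM in Yorkshire and 26.8, 27.5 and 9.74 in Wei. Wei replicates 1 and 2 were the highest, and Wei replicate 3 fell within the Yorkshire range. The log2 fold change was 0.86 ± 0.45 (edgeR, adjusted p = 0.286), with a 95% interval from -0.16 to 1.89.

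EGR1, a zinc finger factor that serum response factor and its ETS partners induce (ENSSSCG00000014336, chromosome 2, 146156065 to 146160020), had the widest spread of the set. It stood at 82.1, 6.64 and 30.5 CPM in Yorkshire and at 42.0, 90.2 and 36.6 in Wei. Yorkshire replicate 2 was far below the other 5 libraries, 12.4-fold below Yorkshire replicate 1, while the remaining values of both breeds were mixed. For EGR1 the log2 fold change was 0.49 ± 0.72 (edgeR, adjusted p = 0.72), with a 95% interval from -1.15 to 2.14. The low value rested on 120 counts, against 2100 in Yorkshire replicate 1, and so not on a handful of reads.

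ATF3, a stress-induced bZIP factor that can pair with JUN (ENSSSCG00000015595, chromosome 9, 143690556 to 143703872), stood at 94.1, 23.6 and 22.4 CPM in Yorkshire. In Wei it stood at 32.7, 67.6 and 18.3 CPM. A single library of each breed stood out, Yorkshire replicate 1 and Wei replicate 2. Between breeds the log2 fold change was -0.25 ± 0.62 (edgeR, adjusted p = 0.849; 95% interval -1.67 to 1.18). MYC, a growth-promoting factor that pairs with MAX (ENSSSCG00000005965, chromosome 4, 12778444 to 12783481), stood at 22.0, 7.63 and 7.29 CPM in Yorkshire and at 7.93, 11.6 and 5.14 in Wei. Yorkshire replicate 1 was again the highest, and the other 5 libraries of both breeds overlapped. Its log2 fold change between breeds was -0.59 ± 0.46 (edgeR, adjusted p = 0.474; 95% interval -1.65 to 0.47).

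IER2, a small nuclear protein of the early response (ENSSSCG00000013753, chromosome 2, 66211129 to 66211794), had the fewest reads of the set, between 46 and 201 counts per library. It stood at 7.85, 2.54 and 3.57 CPM in Yorkshire and at 6.27, 5.66 and 4.65 in Wei. The Wei values all lay inside the Yorkshire range. For IER2 the log2 fold change was 0.23 ± 0.38 (edgeR, adjusted p = 0.753; 95% interval -0.64 to 1.11).

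DUSP1 encodes a phosphatase that removes the activating phosphates from the p38, JNK and ERK kinases, and so shuts off the signal that induces the other genes. It is also induced by glucocorticoids. DUSP1 (ENSSSCG00000016991, chromosome 16, 55768409 to 55771513) stood at 170, 101 and 94.7 CPM in Yorkshire and at 432, 412 and 216 in Wei. Each Wei library was above each Yorkshire library, and the nearest values were Wei replicate 3 and Yorkshire replicate 1. Of all tested genes 29.6% had no overlap between breeds, 14.3% with Wei higher, so this separation by itself is common. The mean was 122 ± 41.6 CPM (SD, n = 3) in Yorkshire and 353 ± 119 in Wei. For DUSP1 the log2 fold change was 1.53 ± 0.31 (edgeR's quasi-likelihood test, adjusted p = 0.0354), or 2.89-fold with a 95% interval from 1.77 to 4.74.

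The call of DUSP1 depended on which libraries were kept, and its direction did not change. Without Yorkshire replicate 1 its edgeR adjusted p was 0.0328, and without Wei replicate 3 it was 0.0272. Without Yorkshire replicates 2 and 3 in turn it was 0.128 and 0.102, and without Wei replicates 1 and 2 in turn 0.0848 and 0.0719, with log2 fold changes of 1.42, 1.39, 1.37 and 1.42. In the fits without 1 library, between 0.438% and 2.87% of all tested genes were called. Since the breeds do not overlap for DUSP1, leaving out a library could hardly turn its sign.

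Markers of other cell types differed with breed in part. The 7 fibroblast markers with a row summed to between 1950 and 3450 CPM in Yorkshire and between 617 and 1550 in Wei, without overlap. All 7 had counts in every library. COL3A1 had the largest part of that sum, at 1380 to 2350 CPM in Yorkshire and 220 to 887 in Wei. All 7 changes were negative, and 3 of 7 genes had no overlap, against 29.6% of all tested genes. PDGFRA, DCN, LUM and THY1 overlapped between breeds. The 8 endothelial markers summed to between 203 and 226 in Yorkshire and between 155 and 244 in Wei, and the 8 smooth muscle and pericyte markers to between 281 and 341 and between 212 and 404. The 11 macrophage markers ranged from 40.9 to 195 in Yorkshire and from 45.3 to 52.2 in Wei. The 5 adipocyte markers summed to between 279 and 306 in Yorkshire and between 430 and 513 in Wei, again without overlap. Most of that sum was PLIN4, at 249 to 308 CPM in Yorkshire and 408 to 456 in Wei, while PLIN1, CIDEC and LIPE overlapped between breeds, with log2 fold changes of -0.08, -0.51 and 0.55. Of these markers PLIN4 was called higher, and DPT, a fibroblast marker, and CSPG4, a pericyte marker, lower. Their edgeR adjusted p was 0.0336, 0.0189 and 0.0453, with log2 fold changes of 0.7, -1.29 and -0.97. Each missed the threshold when some libraries were left out. Over all tested genes, 2.73% were called higher and 2.35% lower. None of the adipocyte, endothelial, smooth muscle, fibroblast or macrophage markers tested had Yorkshire replicate 1 highest together with Wei replicate 3 lowest. CDH15, 1 of 5 satellite cell markers, and HBB, the 1 red blood cell marker tested, did, with HBB at 15.6, 12.9 and 8.71 CPM in Yorkshire and 13.8, 9.36 and 8.52 in Wei. Neutrophil markers were near 0, at 0.935 CPM or less in total with MPO at 0 in each library. The part of cell makeup in the level of DUSP1 or in the library positions was not tested.

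Passing the test in DUSP1 and missing it elsewhere does not show that DUSP1 differed from the others. Its ratio to each is given as a description, with no test, since DUSP1 was taken as numerator for its change and this sets the direction. The count of DUSP1 relative to JUN was 0.886, 0.718 and 0.534 in Yorkshire and 1.60, 1.27 and 1.45 in Wei. The ratio to MYC was 7.71, 13.3 and 13.0 in Yorkshire and 54.5, 35.4 and 42.0 in Wei. The Wei ratios lay above all Yorkshire ratios for 4 of 7 partners, JUN, ATF3, IER2 and MYC. They overlapped for FOS, JUNB and EGR1. The ratio to ATF3 was 1.81, 4.30 and 4.23 in Yorkshire and 13.2, 6.09 and 11.8 in Wei, and the ratio to IER2 was 21.6, 39.8 and 26.5 against 68.9, 72.8 and 46.5. Relative to FOS, DUSP1 stood at 0.332, 1.81 and 0.677 in Yorkshire and 1.32, 1.01 and 1.98 in Wei. The overlap with EGR1 came from Yorkshire replicate 2, where the ratio was 15.3, the highest of the 6, against 2.07 and 3.10 in the other Yorkshire libraries and 4.56 to 10.3 in Wei. Mean differences in log2 ratio, Wei minus Yorkshire, ran from 0.50 for EGR1 to 1.98 for MYC. Of the 13208 other tested genes, 75.3% gave a ratio of DUSP1 that was higher in each Wei library than in any Yorkshire library, so separation from 4 of 7 genes is nothing particular to this set. These ratios do not depend on library scaling.

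**Figure D2:**
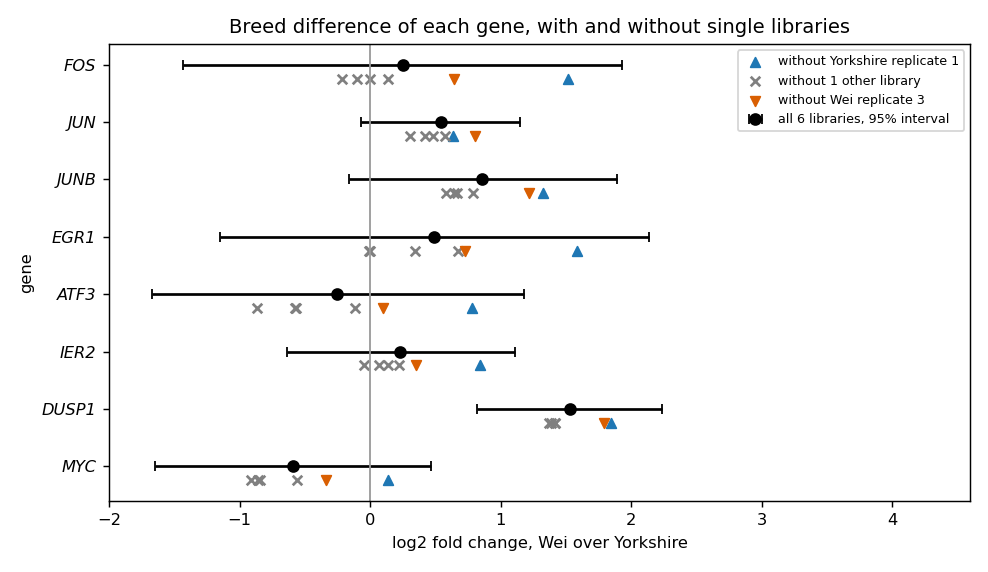
Log2 fold change of each gene, Wei over Yorkshire, from edgeR; black points and bars are the values with all 6 libraries and their 95% intervals, and the coloured and grey marks below them are the values with 1 library left out. The interval of DUSP1, from 0.82 to 2.24, is the one that does not reach 0, and leaving out Yorkshire replicate 1 moved FOS from 0.25 to 1.52 and EGR1 from 0.49 to 1.58.

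The direction of FOS, EGR1, ATF3, IER2 and MYC turned when 1 or more single libraries were left out, and that of JUN and JUNB did not. With all libraries, 6 of 8 changes were positive and 2 negative, with a median of 0.37 against -0.02 over all tested genes. Without Yorkshire replicate 1, 8 of 8 were positive with a median of 1.08. Without Yorkshire replicate 2, 3 of 8 were positive with a median of -0.03. The median over all tested genes was -0.02 in both of those fits. ATF3 moved from -0.25 to 0.78 and MYC from -0.59 to 0.14 when Yorkshire replicate 1 was left out. Without Wei replicate 2, the library with Y chromosome counts, the median of the set was 0.11 and 4 of 8 changes were positive.

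The spread within breeds was wide for most of the set. The SD of log2 CPM between libraries of a breed, pooled over both breeds, was 1.38 for EGR1, 1.34 for FOS and 1.06 for ATF3. It was 0.79 for JUNB, 0.76 for MYC, 0.60 for IER2, 0.51 for DUSP1 and 0.44 for JUN. The median over all tested genes was 0.25. All 8 genes lay above that median and 5 of 8 lay in the top 10% of tested genes, with EGR1 above 99.5% of them and FOS above 99.4%. JUN lay above 80.0%, DUSP1 above 85.2% and IER2 above 89.7%. Most of the spread of EGR1 was in Yorkshire, where the highest library was 12.4-fold above the lowest, against 2.46-fold in Wei. ATF3 spread alike in both, 4.21-fold in Yorkshire and 3.69-fold in Wei, as did JUNB at 2.79-fold and 2.82-fold. JUN was the reverse, with 1.36-fold in Yorkshire and 2.17-fold in Wei. IER2 spanned 3.09-fold in Yorkshire and 1.35-fold in Wei. Whether the spread itself differed between breeds was not tested.

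**Figure D3:**
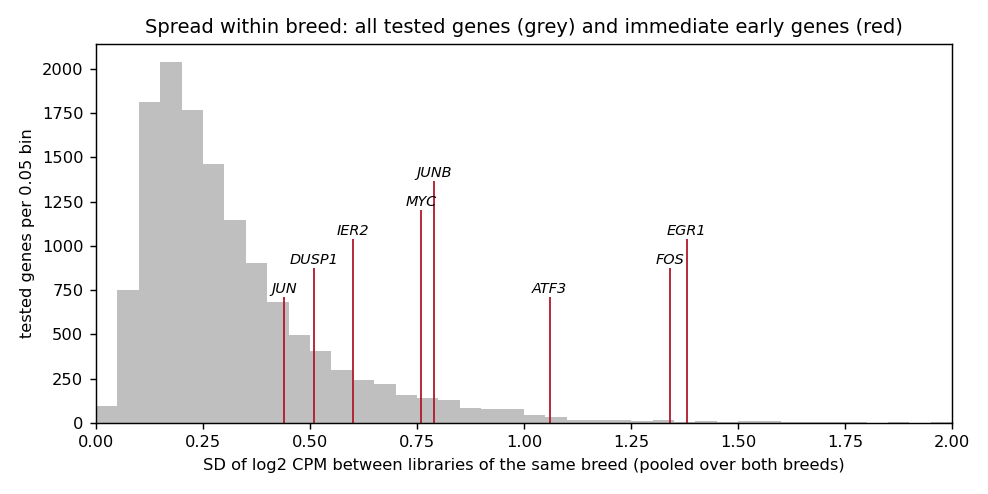
Distribution over all tested genes (grey bars, bins of 0.05) of the SD of log2 CPM between libraries of the same breed, with the immediate early genes marked by red lines whose heights carry no value; the axis ends at 2. FOS and EGR1 sit in the far tail at 1.34 and 1.38, and JUN is nearest to the bulk at 0.44.

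The library at the top in Yorkshire and the library at the bottom in Wei were shared across the set, although the size of the excess was not. Yorkshire replicate 1 exceeded Yorkshire replicate 2 by 1.36-fold for JUN and 1.68-fold for DUSP1, and by 9.13-fold for FOS and 12.4-fold for EGR1. Wei replicate 2 exceeded Wei replicate 3 by between 1.22-fold for IER2 and 3.73-fold for FOS. Of the 6 libraries, Yorkshire replicate 1 was the highest for 4 genes (FOS, ATF3, IER2 and MYC) and Wei replicate 2 for 3 (JUN, JUNB and EGR1). Yorkshire replicate 2 was the lowest for 5 of 8. The mean log2 CPM of the set was 6.07, 4.25 and 4.84 in the Yorkshire libraries, in the order of their numbers, and 5.75, 6.14 and 4.89 in the Wei libraries.

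Heat shock proteins and their partners, which refold damaged proteins, shared these 2 positions and not the rest of the order. Of 13 tested genes, 12 had Yorkshire replicate 1 highest in its breed and Wei replicate 3 lowest in its breed. Yorkshire replicate 2 was the lowest of its breed for 4 of 13, against 5 of 8 in the set, and Wei replicate 2 the highest of its breed for 4 of 13, against 6 of 8. The mean log2 CPM of that list was 8.37, 7.87 and 7.77 in Yorkshire and 8.57, 8.38 and 7.77 in Wei. None of the 13 passed edgeR's test and 2 had an unadjusted p under 0.05, against 5.08% and 23.3% of all tested genes. DESeq2 called 1 and limma voom 0, against 9.78% and 4.88% of all tested genes. The list median was 0.17, and ran from -0.02 without Wei replicate 1 to 0.50 without Wei replicate 3 and 0.44 without Yorkshire replicate 1. Of those with the most reads, HSPA8, the constitutive HSP70, had a log2 fold change of -0.01 ± 0.18 and CRYAB, a small chaperone of muscle, one of 0.96 ± 0.38 (edgeR, adjusted p = 0.986 and 0.176). CRYAB was the gene called by DESeq2. What part a stress response of the animals or samples had in these library positions was not tested.

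The glucocorticoid-responsive list, which bears on DUSP1, differed from the set in the Yorkshire positions and shared the Wei positions in part. Of its 11 tested genes none had Yorkshire replicate 1 highest together with Wei replicate 3 lowest. Yorkshire replicate 1 was the highest of its breed for 1 of 11. Wei replicate 2 was the highest of its breed for 8 of 11, against 33.7% of all tested genes. Wei replicate 3 was the lowest for 6 of 11, against 32.8%. The mean log2 CPM of the list was 4.58, 5.29 and 5.52 in Yorkshire and 5.78, 6.22 and 5.55 in Wei. Each Wei mean thus lay above each Yorkshire mean, as for DUSP1, with 5.55 and 5.52 the nearest. NFKBIA, an inhibitor of NF-kappaB, was the 1 gene called, against 5.08% of all tested genes. NFKBIA was higher in Wei by 1.27 ± 0.27 on the log2 scale (edgeR, adjusted p = 0.0371). It stood at 14.0, 31.7 and 21.9 CPM in Yorkshire and at 50.9, 50.1 and 60.9 in Wei. At an unadjusted p under 0.05, 4 of the 11 passed, all higher in Wei, against 23.3% of all tested genes in either direction. The same 4 had no overlap between breeds, against 29.6% of all tested genes. The largest of these changes, named after its values were seen, was that of PDK4, a kinase that holds back glucose oxidation, at 3.05 ± 0.82 (edgeR, adjusted p = 0.0731). It stood at 5.90, 91.6 and 44.0 CPM in Yorkshire and at 603, 366 and 196 in Wei, and was called by DESeq2 and with no count filter. FKBP5, a chaperone partner of the glucocorticoid receptor also named after its values were seen, had a log2 fold change of 1.06 ± 0.52 (edgeR, adjusted p = 0.26). Its values were 24.9, 37.8 and 92.8 CPM in Yorkshire and 96.7, 170 and 57.0 in Wei, which overlap. Of the 11 changes, 8 were positive and 3 negative. ZBTB16 stood at -0.34, PER1 at -0.23 and SGK1 at -0.03 on the log2 scale, and TSC22D3 at 0.09. NFKBIA was called without Yorkshire replicate 2 and missed without any other library. The list median was 0.47, with 0.27 without Wei replicate 2 and 0.77 without Yorkshire replicate 3.

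**Figure D4:**
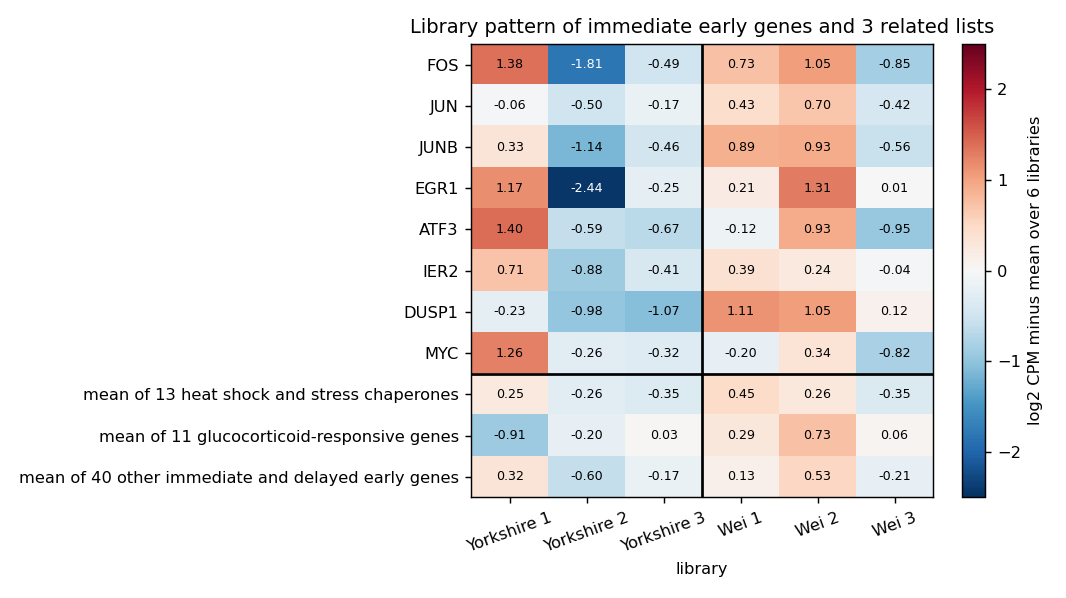
Log2 CPM of each immediate early gene in each library minus its mean over the 6 libraries (top 8 rows), and the same averaged over 3 related lists (bottom 3 rows); red is above the mean and blue below. Yorkshire replicate 1 is above the mean for 6 of 8 genes, JUN and DUSP1 excepted, and for the heat shock list at 0.25, while the glucocorticoid list is lowest there at -0.91.

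Among 40 tested early response genes outside the set, 2 were called higher in Wei and none lower, against 2.73% and 2.35% of all tested genes. Of the 40 changes 23 were positive and 17 negative. PPP1R15A, which directs the removal of phosphate from the translation factor eIF2-alpha under stress, stood at 37.4, 18.4 and 18.2 CPM in Yorkshire and at 97.4, 103 and 41.4 in Wei. Its log2 fold change was 1.71 ± 0.39 (edgeR, adjusted p = 0.0468), and the breeds did not overlap. It missed the threshold with limma voom and when Yorkshire replicates 2 or 3 or Wei replicates 1 or 2 were left out. The second was NFKBIA, given above. At an unadjusted p under 0.05, 8 were higher and 3 lower, against 23.3% of all tested genes in either direction. The list median was 0.13, and 0.67 without Yorkshire replicate 1. The order of libraries extended to part of this list, with 15 of 40 genes showing Yorkshire replicate 1 highest and Wei replicate 3 lowest.

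Swings as wide as those of the set were also seen in other genes of that list, such as KLF10, which spanned 11.4-fold in Yorkshire. The values of 2 more, likewise picked after their values were seen, are given here. BTG2, an antiproliferative gene, stood at 487, 39.0 and 79.8 CPM in Yorkshire and at 157, 302 and 47.2 in Wei. CYR61, a secreted matrix protein, stood at 73.0, 8.68 and 15.4 CPM in Yorkshire and 38.4, 55.8 and 26.5 in Wei. In both, Yorkshire replicate 1 was the highest and Yorkshire replicate 2 the lowest of the 6 libraries. Over the whole list, Yorkshire replicate 1 was the highest of its breed for 23 of 40 genes and Yorkshire replicate 2 the lowest for 26.

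The kinases and factors that drive these genes varied little in their mean over the list, while single genes differed in both directions. Of 31 tested, none passed edgeR's test and 6 had an unadjusted p under 0.05, against 5.08% and 23.3% of all tested genes. DESeq2 called CREBBP and CRTC2, coactivators of CREB, higher, and limma voom called 0, against 9.78% and 4.88% of all tested genes. The list median was -0.01, and the mean log2 CPM per library stayed between 4.33 and 4.48. Of the 31 changes 15 were positive and 16 negative. No overlap between breeds was seen for 9 genes, against 29.6% of all tested genes. Those with the most reads were MAP2K2, a kinase that activates ERK, at 0.14 ± 0.12 (log2 fold change), and RPS6KA3, a kinase downstream of ERK, at 0.34 ± 0.15 (edgeR, adjusted p = 0.522 and 0.202). These are RNA levels, and the phosphorylation that activates these proteins was not measured.

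Among bZIP proteins that can pair with FOS or JUN, or are related to them, 4 of 14 tested were called higher and none lower. Over all tested genes, 2.73% were called higher in Wei and 2.35% lower. The median of the bZIP list was 0.27. NFE2L2, the main regulator of antioxidant genes, stood at 78.9, 72.4 and 77.9 CPM in Yorkshire and at 161, 137 and 139 in Wei, a log2 fold change of 0.93 ± 0.12 (edgeR, adjusted p = 0.0108). NFE2L1, a regulator of proteasome genes, rose by 1.05 ± 0.17, CEBPB by 0.96 ± 0.20 and BACH1, a repressor of antioxidant genes, by 0.79 ± 0.16 (log2; edgeR, adjusted p = 0.0197, 0.0361 and 0.0352). Without Yorkshire replicate 2 none of the 4 passed, and without Yorkshire replicate 1 or 3 only NFE2L2 did. Without Wei replicate 1 BACH1 missed, without Wei replicate 2 BACH1 and CEBPB, and without Wei replicate 3 CEBPB. BACH1 also missed with library size alone and with the replicate number as a block.

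The MYC and MAX network had a median of 0.14. Of its 9 tested genes 1 was called lower and none higher, against 2.35% and 2.73% of all tested genes. It was MLX, the partner of the glucose-sensing MLXIP and MLXIPL, at 69.7, 70.5 and 63.6 CPM in Yorkshire and 38.7, 46.9 and 37.4 in Wei (log2 fold change -0.73 ± 0.13; edgeR, adjusted p = 0.0268). This gene passed without Wei replicate 2 and missed when any other library was left out.

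No other MAP kinase phosphatase was called higher, against 2.73% of all tested genes, and 1 of 7 was called lower, against 2.35%. Of 7 tested, DUSP16, which acts mainly on JNK, fell by 1.19 ± 0.26 on the log2 scale (edgeR, adjusted p = 0.0429), and the median of the 7 was 0.05. It stood at 3.95, 3.10 and 3.17 CPM in Yorkshire and at 1.89, 1.37 and 1.22 in Wei. It missed the threshold with each library left out in turn, and when scaled by library size alone or fitted with the replicate number as a block.

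Early response RNAs carry AU-rich elements, and proteins that bind these control their decay. The list of 10 tested genes, called AU-rich binders below, also counts PARN for its part in decay. Its median was 0.61 against -0.02 over all tested genes. Of all tested genes 2.73% were called higher in Wei. Of these 10, 3 were called higher and none lower. They were ZFP36L2, a decay factor, at 1.09 ± 0.23, PARN, a poly(A) nuclease, at 1.02 ± 0.18, and AUH, an AU-binding enzyme found mainly in mitochondria, at 0.72 ± 0.15 (log2; edgeR, adjusted p = 0.0364, 0.024 and 0.0354). ZFP36L2 stood at 20.2, 14.8 and 24.1 CPM in Yorkshire and at 49.6, 45.6 and 31.1 in Wei. None of the 3 passed in the fits that left out Wei replicate 1, Yorkshire replicate 2 or Yorkshire replicate 3, and PARN alone passed with library size alone. With the replicate number as a block, PARN and ZFP36L1 were called.

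Per length, the deposited FPKM values put FOS first, with a median over the 6 libraries of 119, followed by JUN at 53.3 and DUSP1 at 39.6. FOS ranged from 26.4 to 225, JUN from 38.9 to 90.7 and DUSP1 from 22.5 to 106. ATF3 had a median FPKM of 8.85 (4.89 to 26.2), JUNB 7.50 (3.48 to 15.8) and IER2 7.29 (3.86 to 11.1). EGR1 at 6.58 (1.11 to 14.5) and MYC at 3.62 (2.03 to 9.09) were the lowest. The ranges of neighbours in this order overlapped in every case. FOS exceeded JUN in 5 of 6 libraries, the exception being Yorkshire replicate 2. JUN exceeded DUSP1 in 3 of 3 Yorkshire libraries and in 1 of 3 Wei libraries. DUSP1 exceeded ATF3 in 6 of 6. JUNB exceeded IER2 in 3 of 6, so these 2 cannot be ordered. The FPKM of EGR1 and DUSP1 are low relative to their loci: the gene length that they imply is 1.53 and 1.45 times the whole locus in the table. With the locus itself as length, their medians would be 10.1 and 57.3, which puts DUSP1 above JUN and EGR1 above ATF3. The length implied for ATF3 is 0.25 of its locus, so EGR1 and ATF3 are then set on unlike lengths. A length shorter than the locus would raise the values of EGR1 and DUSP1 further.

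Genes whose library pattern was nearest to the set were found by the root mean square difference of centred log2 CPM over the 6 libraries, among 8856 named genes. CSRNP1, an AXIN1-induced nuclear protein of the early response, was nearest to the mean of the set, at 0.21, and HSPB1, a small heat shock protein, was also among the nearest, at 0.29, where the median gene stood at 0.74. CSRNP1 stood at 11.8, 3.43 and 4.19 CPM in Yorkshire and at 10.8, 16.6 and 6.02 in Wei. PPP1R15A was nearest to DUSP1, at 0.16, followed by TMEM201 at 0.17 and PDLIM3, a Z-disc protein, at 0.25, where the median gene stood at 0.89. TMEM201, an inner nuclear membrane protein, stood at 11.8, 6.47 and 6.41 CPM in Yorkshire and at 31.7, 35.8 and 18.9 in Wei.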

How the data were processed

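The authors deposited 1 table of raw read counts and FPKM per gene for 6 libraries, per the file headers. Tools named in the submitters' processing notes are TopHat2 2.0.9, CASAVA 1.7 and edgeR, and the build is Sscrofa10.2. How reads were counted, with which annotation and strand, is not given in the sources used here. No other row of the table overlaps a member's locus. The deposited FPKM was used to compare levels between genes; the counts went into all tests. After filterByExpr at a minimum count of 10 and TMM scaling, breed was tested by quasi-likelihood in edgeR 4.0.16 and R 4.3.3, with Benjamini-Hochberg adjustment. The SE is the log2 fold change over the root of F. Log2 CPM used a prior count of 2, which damps the spread of low counts. Marker sums are CPM of total counts, without TMM. Symbols came from the table, or for 1774 of 9160 unnamed IDs from a table of gene names by ID. Groups follow the breed label; the counts of each library pair differed by more than sampling noise (chi-square over its degrees of freedom at least 24.5). The test was checked on simulated data in which all genes shared the same spread, so the check does not cover genes as variable as FOS or EGR1.

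The members and lists were chosen with earlier results of these data known. The text names the members, up to 4 called genes of each list or else its 2 most abundant, and the 3 named genes nearest to each profile, of which 1 is not reported here. Alternatives were RLE size factors, library size alone, no filter, a 1 CPM filter, DESeq2 1.42.0, limma 3.58.1 voom, a replicate block and leaving out each library. Figures were drawn with matplotlib 3.10.9.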

Additional observations from a re-analysis of the deposited data

How the results depend on the processing

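All alternatives were planned. Keeping all libraries, DUSP1 was the 1 member called in each setting, with log2 fold changes from 1.52 to 1.56, and no member changed sign. DESeq2 called 1291 genes over the table (713 higher, 578 lower) against 671 (361 and 310) in the main setting. Its totals were 6 other early genes against 2 in the main setting, 2 upstream genes against 0 and 6 AU-rich binders against 3. They were 2 glucocorticoid-responsive genes against 1 and 1 heat shock gene against 0, and some genes are in more than 1 list. The cause of the larger number of calls was not tested. limma voom called 1 other early gene, no filter gave 2 glucocorticoid-responsive genes, and library size alone gave 0 phosphatases and 1 AU-rich binder.

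Leaving out each library in turn, with fewer samples in each fit and so a pair of libraries in an arm, gave 60 to 394 genes (37 to 259 higher, 23 to 135 lower) and 0 to 1 members. The log2 fold changes ranged from -0.21 to 1.52 for FOS, -0.01 to 1.58 for EGR1, -0.87 to 0.78 for ATF3, -0.05 to 0.84 for IER2, -0.92 to 0.14 for MYC and 1.37 to 1.85 for DUSP1, so the sign of the first 5 turned. JUN (0.31 to 0.80) and JUNB (0.58 to 1.32) kept theirs. Calls ranged from 0 to 1 for other early, MYC network, AU-rich and glucocorticoid-responsive genes, from 0 to 3 for bZIP genes, and were 0 for phosphatases. List medians ranged from -0.11 to 0.67 for other early genes, -0.02 to 0.06 for upstream genes, 0.23 to 0.48 for bZIP genes, 0.08 to 0.49 for the MYC network, -0.25 to 0.25 for phosphatases, 0.51 to 0.67 for AU-rich binders, 0.27 to 0.77 for glucocorticoid-responsive genes and -0.02 to 0.50 for heat shock genes.

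With the replicate number as a block, 477 genes were called (258 higher, 219 lower), with 4 other early genes, 0 phosphatases and 1 heat shock gene, and DUSP1 at an edgeR adjusted p of 0.021. Deviations of same-numbered libraries correlated across genes at 0.14, -0.0066 and 0.022, and not every library correlated best with its own number, which does not make pairs of them. IER2, with as few as 46 counts, is the member that depth limits most.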

Other observations

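The FPKM of 2 members rest on a length that the table's coordinates cannot hold. Dividing counts by FPKM and by the library total gave a constant length per gene in all libraries. For IER2, JUN and JUNB it equalled the locus, at 666, 3477 and 1881 bp. For EGR1 it was 6047 bp against a locus of 3956 bp, and for DUSP1 4496 bp against 3105 bp. Of the 4854 genes above 200 counts in each library, 19 (0.391%) had an implied length more than 1% above the locus, so 2 of 8 members belong to a small group. This length cancels in any comparison of 1 gene between libraries and touches only comparisons between genes.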
